A study of Mus musculus with 20 samples.

Results

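The expression of mouse lung cells was measured after 2 successive cultures, and the question taken up here is whether the response to the second substrate depends on the first. Collagenase digests of lungs from normal male C57BL/6 mice, with no sorting of the cells, were kept for 4 days either on flat tissue culture plastic (2D) or inside a 3D collagen hydrogel, then passaged for 2 days onto the same or the other substrate, with no chemical treatment. This gave the groups 2D-2D and 2D-3D from plastic and 3D-2D and 3D-3D from gel, named by the first and then the second culture, with 4 RNA-seq libraries in each. These 16 of the study's 20 libraries form a 2 by 2 design. Of 18012 genes with values, 13704 passed a filter on low counts and were tested. Whether the 4 libraries of a group are from different animals is not stated in the labels, and the p-values cover no more than the spread among them, which may be technical.

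A stiff flat surface lets fibroblasts spread, pull on stress fibres and turn into contractile myofibroblasts, whereas a soft collagen gel keeps them rounded or spindle shaped and exposes them to matrix on every side. Signals of this kind reach the nucleus through the transcriptional coactivators YAP and TAZ and through MRTF with serum response factor. Mechanical memory is the name given to a state that outlasts the substrate that set it. If the substrates acted independently, the fold change from plastic to gel would be the same whatever came before. The interaction measures the departure from that, as the log2 fold change from 3D-2D to 3D-3D minus the log2 fold change from 2D-2D to 2D-3D. A positive value, called higher here, means that gel over plastic gave the larger ratio in cells that had first been in gel, and an interaction of 1 means that the ratios differed by 2-fold.

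The libraries held 19672129 to 20328950 counts, with 14487 to 15444 genes detected in each. Levels are in CPM, the count per 1e+06 counts of the library, scaled between libraries by the trimmed mean of M values (TMM). All 10 general fibroblast markers had counts in every group, and together they took a mean of 2.06% of counts in 2D-2D, 1.97% in 2D-3D, 1.29% in 3D-2D and 1.56% in 3D-3D. The same libraries held other cells, since the digests were not sorted, and macrophage markers took 1.06%, 3.12%, 1.56% and 2.12% of counts in the same order. In RNA from whole cultures, fewer cells of a type and less RNA per cell cannot be told apart. Replicates of a group were compared by a chi-square of their counts, which per degree of freedom was 32.62 to 39.31 for the pairs with replicate 3 of 3D-3D and at most 25.58 for all others, and its value is given beside several of the genes for which it was the highest of its group.

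The interaction was called for 2654 genes, 19.4% of those tested, at an adjusted p below 0.05 (edgeR quasi-likelihood test, Benjamini-Hochberg over all genes tested). It was higher for 1407 genes (10.3%) and lower for 1247 (9.1%), and for 873 genes (6.37%) the fitted value was also at least 2-fold, 479 of them higher (3.5%) and 394 lower (2.88%). The second culture itself was called for 9763 genes (71.2%) after 2D and 9662 (70.5%) after 3D. The first culture was called for 3793 genes (27.7%) when the second culture was gel, 2052 of them higher after gel (15%) and 1741 lower (12.7%). It was called for 2793 (20.4%) when the second culture was plastic, 1335 higher (9.74%) and 1458 lower (10.6%). The median absolute interaction was 0.249 on the log2 scale, beside 0.607 and 0.545 for the second culture after 2D and after 3D. Of the sum of squares of log2 CPM over the tested genes, 58.94% (jackknife SE 2.29 over the 16 libraries) went to the second culture, 18.42% (1.24) to the first, 6.98% (0.68) to the interaction and 15.66% (1.92) to the spread between replicates.

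The effects of the second culture after 2D and after 3D share no library and can be set side by side. They were both called for 7990 genes, which are 81.8% of the calls after 2D and 82.7% of those after 3D. The direction was the same for 7734 of these genes and opposite for 256. The effects of the first culture in gel and on plastic were both called for 1354 genes, 35.7% of the calls in gel and 48.5% of those on plastic, and 418 of these had opposite signs.

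Among the 2654 called interactions, 903 (34%) had the same sign in both arms with the larger effect after 2D, and 656 (24.7%) were called in the second culture only after 2D. A further 494 (18.6%) were called only after 3D, 334 (12.6%) had the same sign with the larger effect after 3D, and 256 (9.6%) had opposite signs. In 11 genes neither arm was called. Of the 873 genes past 2-fold, 172 had 3D-3D standing alone above the other groups, 114 had 2D-2D alone below and 99 had 2D-3D alone below, where alone means a gap at least as wide as the range of the other 3 groups. Over all genes tested these shapes were held by 5.9%, 4% and 3.6%, beside 19.7%, 13.1% and 11.3% of the 873. A group standing alone is itself a form of interaction, so larger shares among genes picked for their interaction follow in part from that choice. Not every shape was more frequent among the 873. The group 2D-3D alone above was held by 8.5% beside 4.3% of all genes. For 3D-3D alone below the shares were 3% and 3.7%, and for 2D-2D alone above 2.1% and 3.9%.

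**Figure D1:**
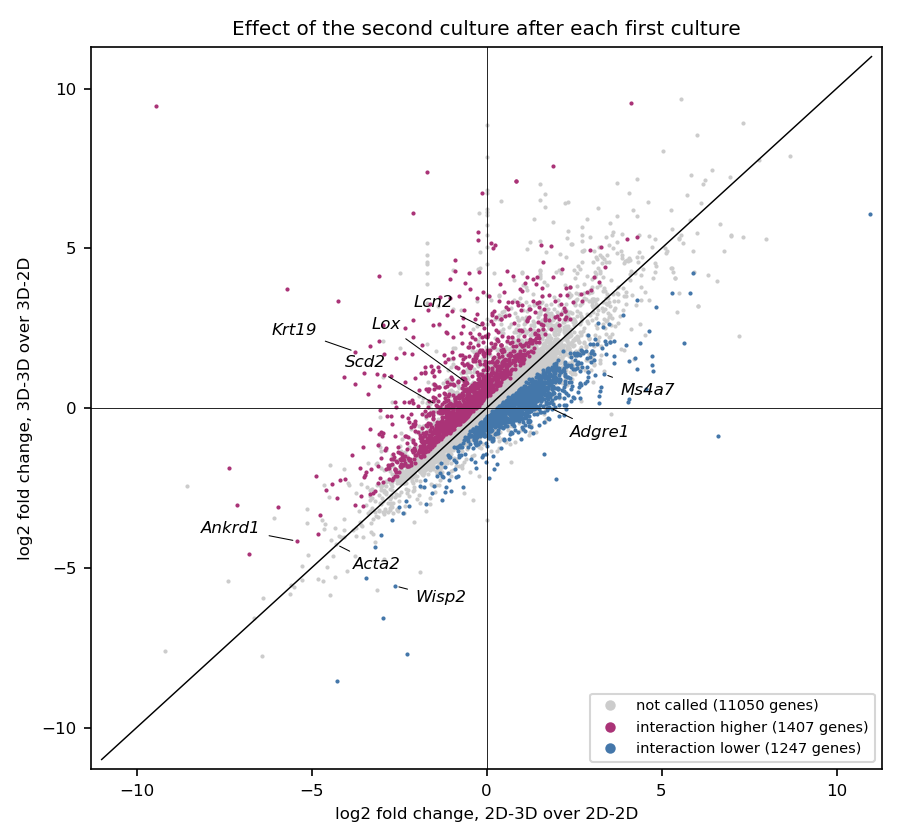
Log2 fold change from plastic to gel after a first culture on plastic (horizontal) and after a first culture in gel (vertical), one point per tested gene, coloured by the call of the interaction. The 7734 genes called in both with the same sign lie to the lower left and the upper right, and Acta2 sits near the diagonal of equal effects, while the 1407 genes called higher lie above it and the 1247 called lower lie below it.

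The smooth muscle and contractile genes fell in gel after either first culture. The interaction was called for 4 of 19 (21.1%), near the 19.4% of all genes tested. Acta2, the alpha smooth muscle actin of myofibroblast stress fibres, stood at 14221, 14181, 14702 and 13017 CPM in the 4 libraries of 2D-2D and at 9813, 10131, 10812 and 10364 CPM in 3D-2D. In gel it stood at 866, 735, 686 and 551 CPM in 2D-3D and at 817, 536, 340 and 449 CPM in 3D-3D. Every plastic library was above every gel library, and the gel groups overlapped. On plastic the libraries of 2D-2D were all above those of 3D-2D, though that effect of the first culture was not called (log2 -0.45, adjusted p = 0.0766). The log2 fold change from plastic to gel was -4.31 after 2D and -4.26 after 3D, with an interaction of 0.04 ± 0.25 (SE, adjusted p = 0.936). The 3D-3D mean of 535 CPM lay beside the 520 CPM given by multiplying the separate fold changes.

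All 19 tested members of the contractile list fell in gel after either first culture, beside 34.7% of all tested genes that fell after 2D and 32.8% that fell after 3D. In the interaction 1 member was lower at an unadjusted p below 0.05, and DESeq2 and limma-voom called none lower. Without replicate 1 of 3D-3D 1 member was called lower. In the main test the interaction was called higher for 4 of the 19 and lower for none, beside 10.3% and 9.1% of all genes. The median was 0.16 beside 0.03 over all genes tested. The 4 were Myh11, Smtn, Pdlim7 and Tagln2, and the call for Tagln2 was lost without replicate 1 of 3D-2D. Pdlim7, a LIM-domain protein of actin filaments, fell by 1.92 on the log2 scale after 2D and fell by 1.33 after 3D. Tagln, which codes for the actin-binding protein transgelin, had an interaction of 0.12 ± 0.19 and Cnn1, the thin-filament protein calponin, one of -0.20 ± 0.26, and neither was called. The first culture was called for Cnn1 on plastic, where it was lower after gel by log2 -0.81 (adjusted p = 0.00141). Taken on the linear scale of CPM instead of ratios, the difference of differences was called for Acta2, Tagln and Cnn1. It was positive for all of these, which for Cnn1 was a change of direction. On that scale 12 members of the contractile list were called higher and 2 lower, and the call for Tagln2 was lost.

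The cell cycle, ribosome and respiratory chain lists held few or no called interactions. Of all genes tested 19.4% were called by edgeR. None of 26 genes of DNA replication and S phase, of 32 cytosolic ribosomal proteins or of 25 respiratory chain subunits was called by it. At an unadjusted p below 0.05 these lists held 0, 7 and 2 genes, DESeq2 called 0, 3 and 1, and limma-voom called none in any of them. With single libraries left out, edgeR called 5, 4 and 1 ribosomal genes higher without replicate 4 of 2D-2D, replicate 2 of 3D-3D and replicate 3 of 2D-2D, 1 S phase gene higher without replicate 3 of 3D-3D and 1 respiratory gene lower without any of 4 libraries. All 26 mitosis genes fell in gel after both first cultures, beside 34.7% of all genes after 2D and 32.8% after 3D. Their median interaction was 0.33 beside 0.03 over all genes tested. At an unadjusted p below 0.05, 10 of them were higher in the interaction and none lower. DESeq2 called 4 mitosis genes higher and limma-voom 2. By edgeR 2 of the 26, Aurka and Kif20a, were called higher with adjusted p of 0.0294 and 0.031, beside 10.3% of all genes. Their calls were lost when any of 8 libraries (Aurka) or any of 9 (Kif20a) was left out. Both were also lost with library size alone and on linear CPM. The mitosis count rested on single libraries: it was 11 without replicate 3 of 3D-3D and 0 without replicate 1 of that group. Col1a1, which codes for the alpha1 chain of type I collagen, dropped by 0.93 after 2D and by 0.94 after 3D on the log2 scale, and its interaction was -0.02 ± 0.16 (adjusted p = 0.964), with a positive value on linear CPM. Col3a1 rose in gel by 1.43 and 1.73, with an interaction of 0.30 ± 0.18 that was not called (adjusted p = 0.269).

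**Figure D2:**
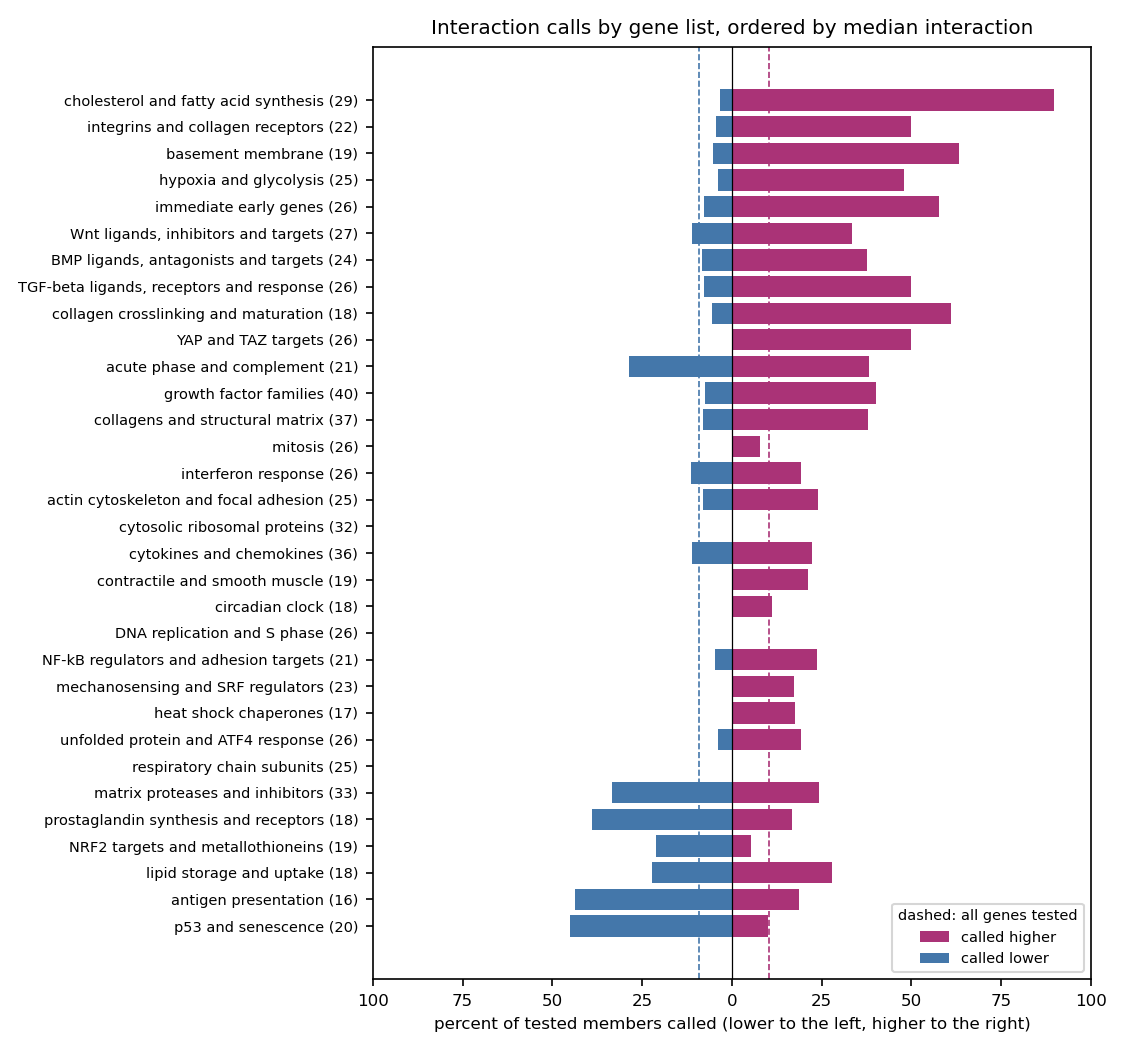
Share of the tested members of each functional list whose interaction was called higher (right) or lower (left), with the number tested in brackets and dashed lines at the shares over all genes tested, 10.3% and 9.1%. Cholesterol and fatty acid synthesis extends furthest to the higher side, and S phase, ribosomal and respiratory chain genes have no bar.

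Cholesterol and fatty acid synthesis was the list with the largest share of called members. Its enzymes and regulators are switched on together by the SREBP transcription factors when sterols in the cell run low. Of 29 members, all of which were tested, 26 were called higher and 1 lower, 93.1% beside 19.4% of all genes, and the median interaction was 0.84 beside 0.03. In cells from plastic 18 members fell and 3 rose on moving to gel, beside 34.7% and 36.5% of all genes. In cells from gel 10 fell and 13 rose, near the 32.8% and 37.7% of all genes. The lowest of the 4 groups was 2D-3D for 21 of the 29 genes, a count for which the share over all genes was not taken. The list was chosen with earlier results of these data known.

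Scd2, a stearoyl-CoA desaturase that makes monounsaturated fatty acids, stood at 252, 235, 270 and 301 CPM in 2D-2D and at 90.5, 95.7, 92.1 and 113 CPM in 2D-3D. It stood at 162, 182, 153 and 163 CPM in 3D-2D and at 161, 195, 188 and 162 CPM in 3D-3D. The drop in gel was thus seen only in cells that came from plastic, and the groups that began in gel overlapped. The log2 fold change was -1.44 after 2D and 0.10 after 3D (adjusted p = 0.35), and the interaction was 1.53 ± 0.13 (adjusted p = 8.73e-08). Scd1, the other stearoyl-CoA desaturase of the list, had the same shape, with 154, 58.5, 98.9 and 90.2 CPM as the means of 2D-2D, of 2D-3D, of 3D-2D and of 3D-3D.

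Idi1, which isomerises the isoprenoid building block of sterols, stood at 14.3, 11.6, 14.7 and 14.6 CPM in 2D-2D, at 14.1, 18.5, 16.8 and 18.1 CPM in 2D-3D, at 14.8, 11.2, 13.7 and 14.9 CPM in 3D-2D and at 38.2, 48.7, 25.3 and 40.9 CPM in 3D-3D. All 4 libraries of 3D-3D were above the other 12, and the interaction was 1.20 ± 0.22 (adjusted p = 0.000485).

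Regulatory members were called as well. Srebf2 and Srebf1, the genes of the SREBP factors, had 0.57 ± 0.11 and 0.49 ± 0.12. Acly and Mvd were the 2 members not called, with 0.25 each. Dhcr7, the reductase that makes cholesterol from its immediate precursor, was the only member called lower, at -0.64 ± 0.11. The count of members called higher stayed between 23 and 25 when each of the 16 libraries was left out in turn. It was 1 when an interaction of more than 2-fold was required.

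**Figure D3:**
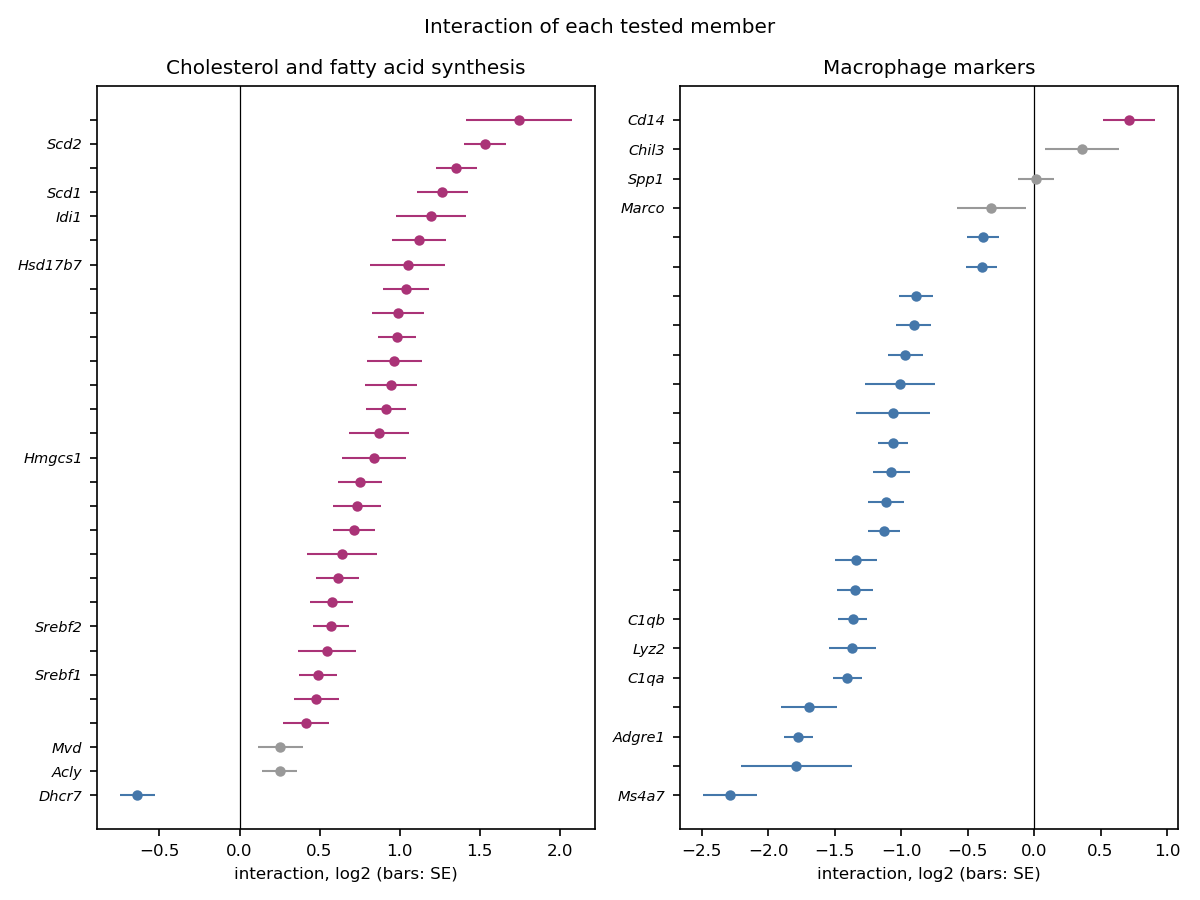
Interaction (log2, with SE) of each tested member of the cholesterol and fatty acid synthesis list and of the macrophage marker list, coloured where called and grey where not, with the members described in the text named. Of the former 26 of 29 lie to the right of 0 and were called, and of the latter 20 of 24 lie to the left and were called.

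The promoters of this list were read from RefSeq (GRCm38.p6), from 250 bases before to 50 after each start. SREBP factors are known to work with the CCAAT-binding factor NF-Y at sterol genes, so the letters searched, on both strands, were TCACNCCAC, a core of the sterol regulatory element, and CCAAT. The choice was made after the promoters had been seen. Of the 29 genes 19 matched, with 24 promoters. CCAAT was present in 18 of the 24 (75%), beside 37.3% of the 13683 promoters of tested genes, and TCACNCCAC in 1 of the 24, beside 1.1%. That promoter belongs to Hmgcs1, the synthase that makes HMG-CoA. It is shown with those of Idi1 and Hsd17b7, which had the largest interactions among members with CCAAT. Capitals mark the motif letters, written ATTGG where CCAAT lies on the other strand, and the motifs do not overlap. A match is a description of these letters and not a measured site.
Hmgcs1 (chr13:119690101-119690400, plus strand): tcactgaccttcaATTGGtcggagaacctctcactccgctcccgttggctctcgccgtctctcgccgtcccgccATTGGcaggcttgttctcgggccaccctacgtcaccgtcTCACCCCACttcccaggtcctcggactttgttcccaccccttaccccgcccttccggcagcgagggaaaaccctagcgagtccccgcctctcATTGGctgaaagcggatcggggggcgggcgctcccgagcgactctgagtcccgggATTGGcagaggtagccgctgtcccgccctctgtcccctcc
Idi1 (chr13:8885356-8885655, plus strand): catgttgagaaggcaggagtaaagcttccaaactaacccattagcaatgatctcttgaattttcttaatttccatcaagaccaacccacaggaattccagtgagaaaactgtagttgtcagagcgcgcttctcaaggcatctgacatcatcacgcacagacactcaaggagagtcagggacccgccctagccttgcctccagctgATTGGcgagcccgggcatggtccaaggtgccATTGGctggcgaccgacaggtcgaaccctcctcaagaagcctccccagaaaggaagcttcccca
Hsd17b7 (chr1:169969156-169969455, minus strand): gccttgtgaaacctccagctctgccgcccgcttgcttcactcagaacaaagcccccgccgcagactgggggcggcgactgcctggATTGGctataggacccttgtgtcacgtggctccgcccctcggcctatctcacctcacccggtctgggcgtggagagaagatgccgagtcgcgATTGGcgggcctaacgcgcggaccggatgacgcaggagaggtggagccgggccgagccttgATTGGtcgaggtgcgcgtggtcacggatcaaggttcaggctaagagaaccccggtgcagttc
Hmgcs1 holds 1 TCACNCCAC and 4 CCAAT, Idi1 2 CCAAT and Hsd17b7 3. Hmgcs1 itself stood at 30.5, 30, 35.3 and 38.9 CPM in 2D-2D, at 44.2, 49.2, 63.3 and 52.5 CPM in 2D-3D, at 33.7, 25.1, 26.5 and 25 CPM in 3D-2D and at 78.2, 90.3, 55.2 and 83.9 CPM in 3D-3D. It rose in gel in both arms, by 0.64 after 2D and 1.48 after 3D, with an interaction of 0.84 ± 0.20 (adjusted p = 0.00444). Hsd17b7, a reductase of late sterol synthesis, averaged 12.4, 9.66, 10.8 and 17.4 CPM in the order 2D-2D, 2D-3D, 3D-2D, 3D-3D and had an interaction of 1.05 ± 0.24.

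Macrophage markers were the list with the largest share of members called lower. Of 24 markers, all tested, 20 were called lower and 1 higher, beside 9.1% and 10.3% of all genes, and the median interaction was -1.07. On moving to gel 23 of the 24 rose after 2D, beside 36.5% of all genes. After 3D 11 rose and 3 fell, beside 37.7% and 32.8% of all genes. Their summed share of counts was 2.80% to 3.32% in the libraries of 2D-3D and 0.96% to 1.15% in 2D-2D, against 1.95% to 2.31% in 3D-3D and 1.49% to 1.59% in 3D-2D. No library of any group overlapped with another group in that share.

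Adgre1, which codes for the F4/80 antigen of mouse macrophages, stood at 57.8, 51.6, 54.9 and 58.9 CPM in 2D-2D and at 169, 195, 197 and 212 CPM in 2D-3D. It stood at 110, 107, 113 and 120 CPM in 3D-2D and at 107, 121, 117 and 111 CPM in 3D-3D. Cells from plastic thus showed a rise with no overlap and cells from gel overlapped, with log2 fold changes of 1.79 and 0.02 (adjusted p = 0.818) and an interaction of -1.77 ± 0.11 (adjusted p = 1.79e-09). Lyz2, the lysozyme of myeloid cells and the most abundant marker of the list, averaged 4707, 11916, 6740 and 6618 CPM in 2D-2D, in 2D-3D, in 3D-2D and in 3D-3D, with an interaction of -1.37 ± 0.18. The complement genes C1qa, C1qb and C1qc, made mainly by macrophages, had interactions of -1.40, -1.36 and -1.28.

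The interaction was wider for some macrophage genes than for the general markers. Ms4a7, a membrane protein of tissue macrophages, stood at 14.6, 11.2, 10.9 and 11.4 CPM in 2D-2D, at 108, 129, 136 and 119 CPM in 2D-3D, at 27.3, 15.1, 18 and 21.4 CPM in 3D-2D and at 37.4, 49.1, 38.8 and 45.5 CPM in 3D-3D. Every library of 2D-3D was above every other library, and the interaction was -2.29 ± 0.20. Fcrls, an Fc receptor-like protein, stood at 174, 192, 217 and 223 CPM in 2D-3D and between 32.9 and 53.3 CPM in all other libraries, so that 2D-3D alone was high, with an interaction of -2.44 ± 0.14. Cx3cr1, the fractalkine receptor, averaged 0.747, 19.8, 2.32 and 5.94 CPM in 2D-2D, in 2D-3D, in 3D-2D and in 3D-3D, with an interaction of -3.36 ± 0.27. Ccl8, a monocyte-attracting chemokine, averaged 0.831, 19.7, 2.02 and 3.04 CPM, with an interaction of -3.97 ± 0.39 (adjusted p = 3.66e-07). P2ry12, a purine receptor known from microglia, had -2.13 ± 0.30, and Ms4a6b, a membrane protein of the same family as Ms4a7, had -2.12 ± 0.21. Neither passed the test of the second culture after 3D (adjusted p = 0.722 and 0.0528), whereas both rose after 2D. Slc46a3, a lysosomal transporter, rose by 2.83 after 2D and by 0.78 after 3D, with -2.05 ± 0.22, and the predicted gene Gm21188 had -2.30 ± 0.16.

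Some genes outside the marker list changed direction with the first culture. Gas6, a ligand of the TAM receptors that clear dying cells, stood at 161, 141, 130 and 151 CPM in 2D-2D and 288, 356, 372 and 451 CPM in 2D-3D, but at 150, 164, 159 and 172 CPM in 3D-2D and 90.2, 113, 80.1 and 95 CPM in 3D-3D. It therefore rose in gel after 2D and fell in gel after 3D with no overlap in either arm, by 1.33 and -0.77 on the log2 scale, and the interaction was -2.10 ± 0.16. Stab1, a scavenger receptor, averaged 284, 348, 672 and 200 CPM in 2D-2D, in 2D-3D, in 3D-2D and in 3D-3D. Its highest and lowest groups, 3D-2D and 3D-3D, thus both began in gel and differed in the second culture. Its interaction was -2.04 ± 0.18. Il21r, Mcoln2, Cd300ld5 and Fcna likewise rose in gel after 2D and fell in gel after 3D, with interactions from -1.65 to -1.45. Of genes with under 1 CPM in a group, 2 others were called lower without a fold that can be given. Cldn2, a claudin of leaky epithelia, had no counts in 2D-2D and averaged 12.4, 0.184 and 12.7 CPM in 2D-3D, in 3D-2D and in 3D-3D (adjusted p = 0.0491). Its call was lost with library size alone, with limma-voom and when any of 12 libraries was left out. On linear CPM its direction turned. Hsd3b1, a steroid dehydrogenase, averaged 10.1, 0.521 and 2.34 CPM in 2D-2D, in 2D-3D and in 3D-2D and had no counts in 3D-3D (adjusted p = 0.0252). Its call was lost with limma-voom and without replicate 2 or 4 of 3D-3D, and its direction turned on linear CPM.

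Not all macrophage markers behaved in this way. Spp1, which codes for osteopontin and is also made by other cells, rose in gel by 1.17 and 1.18 on the log2 scale, with an interaction of 0.01 ± 0.14. Marco, a scavenger receptor of alveolar macrophages, had -0.32 ± 0.26 and Chil3 had 0.36 ± 0.28, and none of the 3 was called. Chil3, a chitinase-like protein of alveolar macrophages, averaged 5.08, 41.9, 18 and 191 CPM in 2D-2D, in 2D-3D, in 3D-2D and in 3D-3D, beside the 148 CPM given by multiplying the fold changes, and replicate 3 of 3D-3D was its highest library at 293 CPM. Cd14, the co-receptor for endotoxin, was the 1 marker called higher, at 0.71 ± 0.20, with 472 CPM in replicate 3 of 3D-3D and 239 to 332 CPM in the rest of that group. Csf1, the growth factor on which macrophages depend, fell in gel by 2.97 after 2D and by 2.30 after 3D on the log2 scale, with an interaction of 0.66 ± 0.12.

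**Figure D4:**
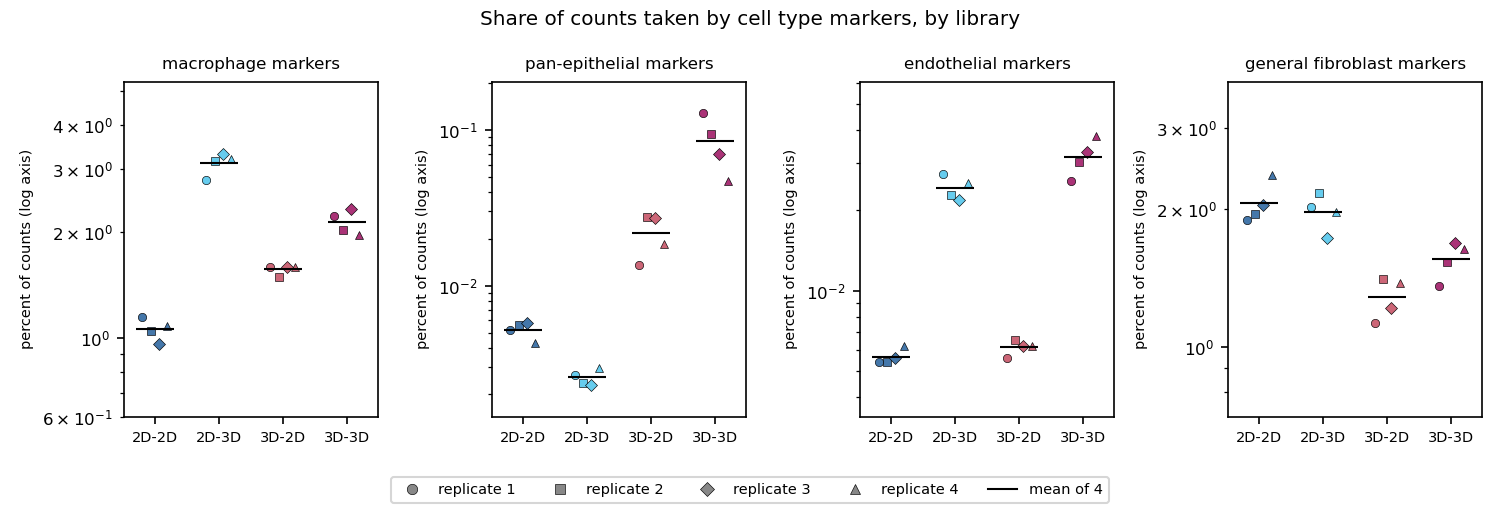
Percent of all counts taken by the markers of 4 cell types in each of the 16 libraries (log axis), with the mean of each group as a bar and the replicate number as the symbol. The macrophage share is highest in 2D-3D at a mean of 3.12%, while the pan-epithelial share is highest in 3D-3D at 0.0849% and lowest in 2D-3D at 0.00257%.

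Pan-epithelial markers had the highest median interaction of any list, at low overall levels. The 18 pan-epithelial markers together took a mean of 0.00519% of counts in 2D-2D, 0.00257% in 2D-3D, 0.0218% in 3D-2D and 0.0849% in 3D-3D, and in the last group they ranged from 0.0473% in replicate 4 to 0.128% in replicate 1. All 18 rose in gel after 3D, beside 37.7% of all genes, while 3 rose and 2 fell after 2D, beside 36.5% and 34.7%. Each of the 18 was highest in 3D-3D. In 2D-2D 2 members had no counts, and in 2D-3D 1 had none. Such members could pass the filter only through the groups where they had counts. Their folds are imprecise, and the counts and the median of the list rest in part on them. The interaction was called higher for 8 and lower for none, beside 10.3% and 9.1% of all genes, with a median of 2.60 beside 0.03. No member was lower at an unadjusted p below 0.05 or by DESeq2 or limma-voom, which called 11 and 5 higher. The part of epithelial cells carried over from the digest in these values was not tested. Of 20 airway and keratinocyte markers 11 passed the filter, and none was called in the interaction by edgeR, while 1 had an unadjusted p below 0.05, DESeq2 called 5 higher and limma-voom 1. Without any of 7 libraries edgeR called 1 higher.

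Krt19, a keratin of simple epithelia and mesothelium, had the largest interaction among genes with at least 1 CPM in every group and 10 CPM in 1 group. It stood at 40.2, 40.6, 43.6 and 29.1 CPM in 2D-2D, at 4.4, 2.33, 1.61 and 2.95 CPM in 2D-3D, at 34.1, 55.8, 49.9 and 43.8 CPM in 3D-2D and at 268, 131, 151 and 75.2 CPM in 3D-3D. Gel was below plastic after 2D and above it after 3D, with no overlap in either arm, and both changes were called at log2 -3.76 and 1.77. The interaction was 5.53 ± 0.43 (adjusted p = 3.1e-08). Multiplying the separate fold changes gives 3.38 CPM for 3D-3D, where the mean was 156 CPM. Epcam, an adhesion protein that marks epithelial cells, was at 39.8, 31.5, 25 and 16 CPM in 3D-3D and at 1.69 to 2.52 CPM in 3D-2D, and every library that began on plastic was at or below 0.226 CPM. Its interaction was 4.20 ± 1.16 (adjusted p = 0.0128), a call that was lost without replicate 3 of 2D-2D and with limma-voom. The groups that began on plastic held few counts of Epcam, so the size of this fold is imprecise. Krt20, a keratin of gut and bladder epithelia, averaged 1.54, 0.0228, 1.44 and 19 CPM in 2D-2D, in 2D-3D, in 3D-2D and in 3D-3D, the second of these from 2 counts, and its interaction was called higher (adjusted p = 2.03e-07) with no fold given. Cldn3, a claudin of tight junctions, and Sprr1a, a precursor of the cornified envelope, also fell in gel after 2D and rose after 3D, with interactions of 2.90 ± 0.52 and 2.86 ± 0.39.

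Further genes with a large positive interaction had different shapes. Aqp5, a water channel of alveolar type 1 cells and glands, averaged 0.395, 0.461, 0.71 and 24.8 CPM in 2D-2D, in 2D-3D, in 3D-2D and in 3D-3D, with an interaction of 4.89 ± 0.94 (adjusted p = 0.000719). Sprr2b, another cornified envelope gene, averaged 0.211, 0.81, 0.0921 and 18.6 CPM, with an interaction of 5.66 ± 0.90 that rests on few counts in 2D-2D and 3D-2D. Sprr2a1 and Sprr2a2 carried the same values, with 24.2 CPM in 3D-3D and at most 0.336 CPM as the mean of any other group, and as near-identical copies they cannot be counted apart. Gata3, a transcription factor of epithelia and lymphocytes, averaged 1.45, 2.91, 1.04 and 13.2 CPM, and its interaction was 2.66 ± 0.29. Ttc9, a tetratricopeptide repeat protein, had 2.73 ± 0.27, and Ackr3, the scavenging receptor of the chemokine CXCL12, had 2.64 ± 0.49. In 3D-3D Ackr3 stood at 50.9 CPM in replicate 3 and at 12.3 to 16.8 CPM in the others. Esrp2, an epithelial splicing regulator, fell in gel in both arms, by 3.32 after 2D and by 0.67 after 3D on the log2 scale, with an interaction of 2.66 ± 0.31.

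Adhesion receptors that epithelia use were called in the same direction. Itga3, the alpha chain of the laminin receptor integrin alpha3 beta1, stood at 14.9, 18.8, 17.4 and 19.8 CPM in 2D-2D, at 3.04, 2.79, 2.28 and 2.54 CPM in 2D-3D, at 19, 32.3, 27.8 and 28.9 CPM in 3D-2D and at 67, 70.5, 47.6 and 32.9 CPM in 3D-3D. As with Krt19, gel was below plastic after 2D and above it after 3D, and the interaction was 3.74 ± 0.30. Itgb4, the beta chain of the hemidesmosome integrin, averaged 2.90, 2.24, 8.36 and 24.3 CPM in 2D-2D, in 2D-3D, in 3D-2D and in 3D-3D, with an interaction of 1.91 ± 0.43.

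These receptors belong to a list of 22 integrins and collagen receptors in which 11 were called higher and 1 lower. Of all genes 10.3% were called higher and 9.1% lower. The median of the list was 0.80 beside 0.03 over all genes tested. The receptors for collagen were among the former: Itga1 averaged 14.1, 6.16, 12.8 and 17.4 CPM and Itga2 averaged 13.3, 7.14, 19 and 23.4 CPM in 2D-2D, in 2D-3D, in 3D-2D and in 3D-3D, with interactions of 1.64 ± 0.24 and 1.20 ± 0.25. Itga5, the fibronectin receptor, fell in gel by 2.14 after 2D and by 1.31 after 3D. Itga4, an integrin of leukocytes, was the member called lower at -1.50 ± 0.17. Of 19 tested basement membrane genes 12 were called higher and 1, Nid2, lower, with a median of 0.71, beside the same values over all genes. Col18a1, the collagen of basement membranes that contains endostatin, averaged 28.9, 39.1, 29.2 and 90.7 CPM, with an interaction of 1.20 ± 0.14. Agrn, the proteoglycan agrin, fell in gel by 0.66 after 2D and rose by 0.52 after 3D. Nid2, a linker protein of basement membranes, had an adjusted p of 0.0438 that ran from 0.00668 to 0.111 over the alternatives. When single libraries were left out, its call held only without replicate 4 of 2D-2D, replicate 1 or 3 of 2D-3D, replicate 1 of 3D-2D or replicate 4 of 3D-3D. The Nid2 call was also lost with DESeq2 and with limma-voom, and its direction turned on the linear scale.

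Several acute phase and inflammatory genes were highest in 3D-3D. Lcn2, the iron-binding protein lipocalin 2 of the innate defence, stood at 66.8, 78.5, 74.2 and 85.1 CPM in 2D-2D, at 82.9, 68.6, 85.4 and 53.7 CPM in 2D-3D, at 188, 233, 186 and 181 CPM in 3D-2D and at 1125, 1031, 1068 and 1275 CPM in 3D-3D. The groups that began on plastic overlapped, and every library of 3D-3D was above the rest. Its change in gel after 2D, log2 -0.07, did not pass the test (adjusted p = 0.633), and it rose by 2.51 after 3D, with an interaction of 2.58 ± 0.17 (adjusted p = 6.37e-09). Hp, the haemoglobin-binding protein haptoglobin, averaged 95.4, 127, 73.5 and 286 CPM in 2D-2D, in 2D-3D, in 3D-2D and in 3D-3D, with an interaction of 1.54 ± 0.13. Saa3, a serum amyloid made at sites of inflammation, averaged 893, 1760, 740 and 4063 CPM, with an interaction of 1.48 ± 0.21.

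The acute phase and complement list as a whole was split. Of its 21 tested members 8 were called higher and 6 lower, beside 10.3% and 9.1% of all genes, with a median of 0.40 beside 0.03. The higher ones included C3, the central complement protein, at 0.56 ± 0.15, and C1s1, a protease of the classical pathway, at 1.13 ± 0.16, and the lower ones included the C1q chains described with the macrophage genes. Among 36 tested cytokines and chemokines 8 were called higher and 4 lower, beside 10.3% and 9.1% of all genes. Csf3, the growth factor of neutrophils, stood at 17.5, 19.3, 13.3 and 15.7 CPM in 3D-3D and between 2.72 and 5.72 CPM in all other libraries, with an interaction of 1.72 ± 0.25.

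Il11 and Lif, cytokines of the IL-6 family that fibroblasts make, fell in gel after 2D and fell less, or did not pass the test, after 3D. Lif stood at 60.9, 74.2, 60.3 and 70.1 CPM in 2D-2D and at 19.9, 19.5, 22.8 and 21.8 CPM in 2D-3D, but at 81.4, 78.9, 84.5 and 70.8 CPM in 3D-2D and 87.1, 92.5, 69.5 and 72.4 CPM in 3D-3D. Only 2D-3D stood apart, all of its libraries below the other 12, and the interaction was 1.69 ± 0.14 (adjusted p = 6.17e-08). Il11, which drives fibroblast activation, averaged 12, 1.86, 41.3 and 29.1 CPM in 2D-2D, in 2D-3D, in 3D-2D and in 3D-3D and fell in gel by 2.69 after 2D and by 0.51 after 3D, with an interaction of 2.18 ± 0.25, while on linear CPM the difference of differences turned to -0.10 of the gene's mean and was not called (adjusted p = 0.691). Ptgs2, the inducible enzyme of prostaglandin synthesis, averaged 157, 38.2, 264 and 186 CPM, with an interaction of 1.53 ± 0.19, a call lost on linear CPM. Of 18 tested genes of prostaglandin synthesis and receptors 3 were called higher and 7 lower, beside 10.3% and 9.1% of all genes. Their median was -0.12. Il6 at 0.43 ± 0.34 and Ccl2 at -0.63 ± 0.29 were not called.

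Most targets of YAP and TAZ fell in gel, and the interaction was called for a part of them. Of 26 members 13 were called higher and none lower, beside 10.3% and 9.1% of all genes, with a median of 0.42. No member was lower at an unadjusted p below 0.05 or by DESeq2 or limma-voom. In gel 22 of the 26 fell after 2D and 19 after 3D, beside 34.7% and 32.8% of all genes. Ankrd1, a cardiac ankyrin repeat protein and a common readout of YAP, stood at 131, 143, 142 and 121 CPM in 2D-2D, at 4.12, 3.11, 2.61 and 2.68 CPM in 2D-3D, at 172, 142, 155 and 145 CPM in 3D-2D and at 9.98, 12.7, 4.75 and 6.66 CPM in 3D-3D. All gel libraries were far below plastic, and those of 3D-3D were all above those of 2D-3D. It fell by 5.42 after 2D and by 4.17 after 3D on the log2 scale, with an interaction of 1.25 ± 0.28 (adjusted p = 0.00257) on ratios and -0.18 of the gene's mean, in the other direction and not called, on linear CPM.

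Ctgf and Cyr61, matricellular proteins released by stretched fibroblasts, fell in gel, with log2 fold changes of -3.53 and -3.19 after 2D and -3.07 and -2.59 after 3D. They had interactions of 0.46 ± 0.16 and 0.60 ± 0.16, and on linear CPM that of Ctgf was -0.05 of the gene's mean. The call for Ctgf (adjusted p = 0.0463) ranged from 0.0101 to 0.721 over the alternatives and was lost when any of 13 libraries was left out, all but replicate 1 of 2D-3D and replicates 3 and 4 of 3D-3D. It was also lost with library size alone and with limma-voom. Tead4, a DNA-binding partner of YAP, averaged 8.51, 0.592, 7.92 and 2.83 CPM in 2D-2D, in 2D-3D, in 3D-2D and in 3D-3D, with an interaction of 2.35 ± 0.42. Wwc1, a scaffold that restrains YAP, was at 0.0948 to 0.545 CPM in 2D-3D and 2.18 to 4.85 CPM in all other libraries, with an interaction of 3.77 ± 0.39. Igfbp3, which binds insulin-like growth factors, averaged 27.6, 54.6, 20.7 and 174 CPM, with an interaction of 2.08 ± 0.30. In 3D-3D it stood at 264 CPM in replicate 3 and at 134 to 159 CPM in the others.

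Structural matrix and crosslinking genes were called more often higher than lower, where 10.3% of all genes were higher and 9.1% lower, with a median of 0.03. Of 37 collagens and structural matrix genes 14 were called higher and 3 lower, with a median of 0.35, and of 18 tested genes of collagen crosslinking and maturation 11 were called higher and 1 lower, with a median of 0.43. The latter counts were 7 higher without replicate 1 of 3D-2D and 0 to 2 lower over the libraries left out, and 5 structural genes were lower without replicate 4 of 2D-3D. Cthrc1, a secreted protein of activated fibroblasts, stood at 8.4, 8.8, 7.41 and 6.39 CPM in 2D-2D, at 22.2, 17.6, 17.7 and 11.4 CPM in 2D-3D, at 5.46, 4.3, 4.58 and 5.17 CPM in 3D-2D and at 34.8, 32, 31.8 and 30.8 CPM in 3D-3D. Gel was above plastic in both arms with no overlap, and the rise was 1.15 after 2D against 2.73 after 3D, with an interaction of 1.58 ± 0.22. Col5a3, Col15a1 and Col6a1 rose more in gel after 3D as well, with interactions of 1.64 ± 0.28, 1.25 ± 0.18 and 0.95 ± 0.18. In 3D-3D Col5a3 stood at 49.7 CPM in replicate 3 and at 27.4 to 31.9 CPM in the others. Eln, the elastin gene, averaged 11.1, 115, 7.21 and 154 CPM in 2D-2D, in 2D-3D, in 3D-2D and in 3D-3D, with an interaction of 1.04 ± 0.28.

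Lox, the enzyme that crosslinks collagen and elastin, changed direction. It stood at 852, 807, 926 and 1245 CPM in 2D-2D and 840, 788, 480 and 512 CPM in 2D-3D, and at 454, 415, 377 and 432 CPM in 3D-2D and 526, 601, 1062 and 680 CPM in 3D-3D. The groups overlapped after 2D and did not after 3D, with replicate 3 of 3D-3D the highest of its group. The fall of 0.55 after 2D had an adjusted p of 0.0164 and the rise of 0.77 after 3D one of 0.00153, and the interaction was 1.32 ± 0.28. Loxl2, a related oxidase, fell in gel by 1.45 after 2D and by 0.54 after 3D.

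Some matrix genes went the other way. Of 33 matrix proteases and inhibitors 8 were called higher and 11 lower, beside 10.3% and 9.1% of all genes. The median of that list was -0.11. Ogn, the small proteoglycan osteoglycin, averaged 16.6, 130, 19.3 and 63.5 CPM in 2D-2D, in 2D-3D, in 3D-2D and in 3D-3D, with an interaction of -1.26 ± 0.40 (adjusted p = 0.032). Its call was lost with DESeq2, with limma-voom, on linear CPM and without replicate 2 or 3 of 2D-2D, replicate 2 of 2D-3D or replicate 1 of 3D-2D. Postn, the matricellular protein periostin, averaged 6.73, 55.4, 4.27 and 17.3 CPM in 2D-2D, in 2D-3D, in 3D-2D and in 3D-3D, rose by 3.04 after 2D and by 2.01 after 3D, and had an interaction of -1.03 ± 0.23. Mmp2, the gelatinase of fibroblasts, averaged 48.5, 555, 84.1 and 351 CPM, with -1.46 ± 0.14, and Ctsk, the collagen-degrading cathepsin K, had -1.20 ± 0.16. Wisp2, a matricellular protein of the same family as Ctgf, stood at 263, 236, 240 and 234 CPM in 2D-2D, at 46.6, 62.5, 25.8 and 23.5 CPM in 2D-3D, at 78.8, 72.4, 75.1 and 75.4 CPM in 3D-2D and at 2.46, 1.63, 0.612 and 1.62 CPM in 3D-3D. Its groups did not overlap, and it fell in gel by 2.62 after 2D and by 5.56 after 3D on the log2 scale. The interaction was -2.94 ± 0.38 (adjusted p = 1.02e-05), the lowest among genes with at least 1 CPM in every group and 10 CPM in 1 group, whereas on linear CPM it was 1.45 times the gene's mean in the other direction (adjusted p = 2.51e-08).

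**Figure D5:**
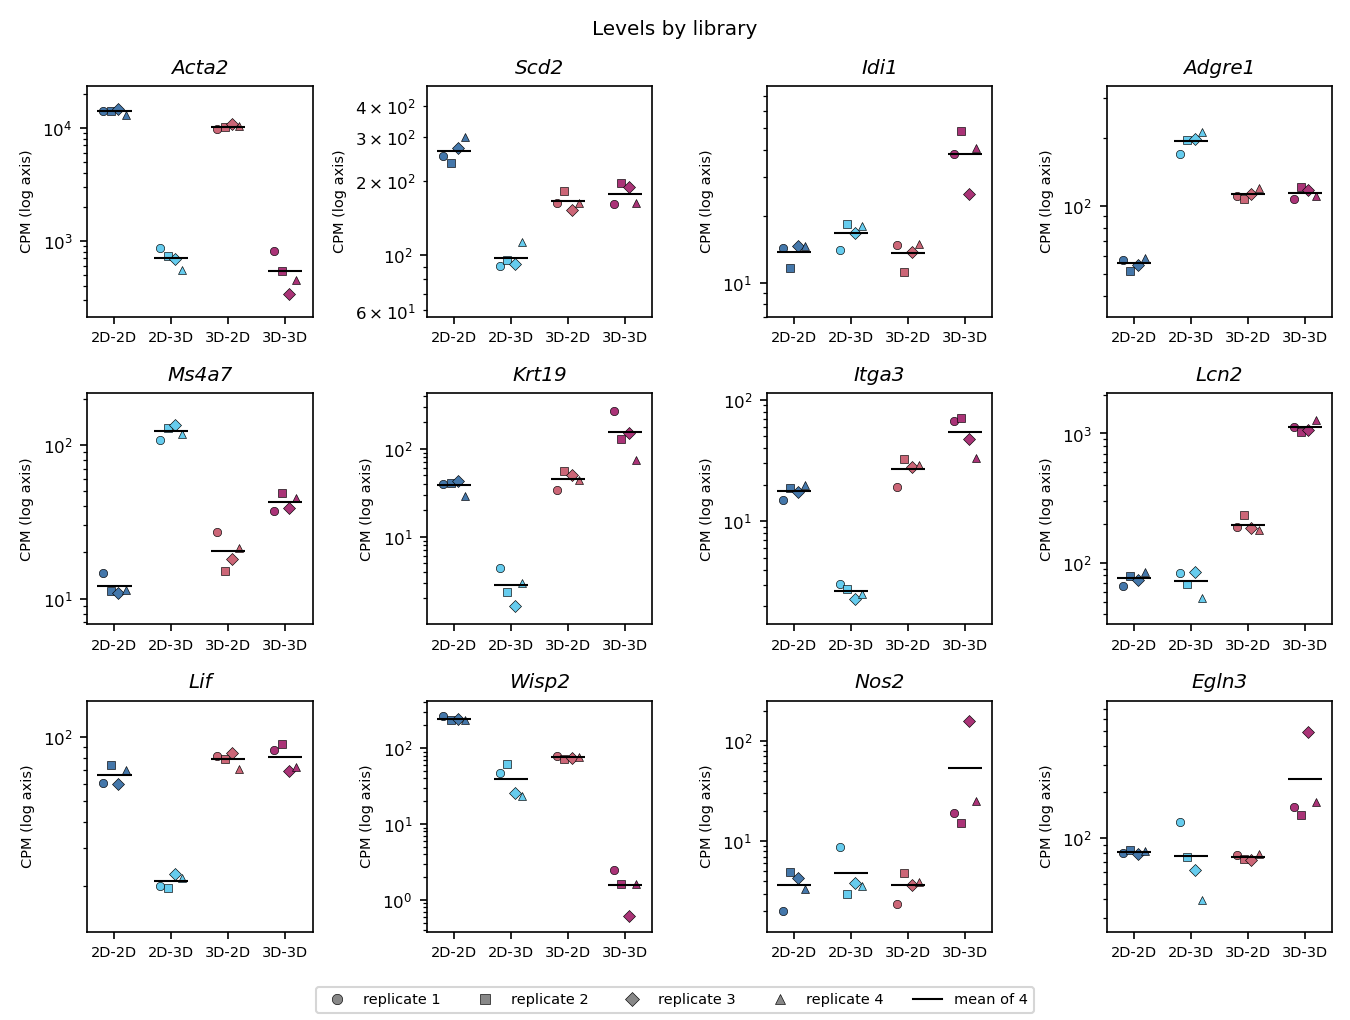
CPM of 12 genes in each library (log axes), with the group mean as a bar and the replicate number as the symbol. Acta2 is high on plastic and low in gel, with 2D-2D above 3D-2D, Scd2 and Lif are lowest in 2D-3D, Adgre1 and Ms4a7 are highest there, Idi1 and Lcn2 are highest in 3D-3D, and in Nos2 and Egln3 replicate 3 of 3D-3D lies above the other libraries of its group.

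In several stress lists the libraries of 3D-3D differed among themselves. Of 25 hypoxia and glycolysis genes 12 were called higher and 1 lower, beside 10.3% and 9.1% of all genes, with a median of 0.63 beside 0.03. The higher count ran from 8 without replicate 1 of 3D-2D to 16 without replicate 1 of 2D-3D and was 10 without replicate 3 of 3D-3D. Ndrg1, a stress gene induced by hypoxia, averaged 130, 164, 79 and 409 CPM in 2D-2D, in 2D-3D, in 3D-2D and in 3D-3D, with an interaction of 2.03 ± 0.40, the largest among members with 10 CPM in 1 group. In 3D-3D it stood at 734 CPM in replicate 3 and at 270 to 353 CPM in the others. Egln3, an oxygen-sensing hydroxylase that is itself induced by hypoxia, stood at 160, 141, 496 and 172 CPM in 3D-3D, at 127, 75.8, 61.9 and 39.1 CPM in 2D-3D, at 79.7, 84, 79.2 and 81.9 CPM in 2D-2D and at 77.1, 73.3, 72.2 and 78.3 CPM in 3D-2D. All libraries of 3D-3D were above the other 12, with replicate 3 far above, and the interaction was 1.79 ± 0.45 (adjusted p = 0.00742). Vegfa, the growth factor of blood vessels, averaged 201, 186, 174 and 396 CPM in 2D-2D, in 2D-3D, in 3D-2D and in 3D-3D, with an interaction of 1.30 ± 0.18, and its highest library, at 550 CPM, was again replicate 3 of 3D-3D.

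The same library led Nos2, the inducible nitric oxide synthase, which stood at 18.9, 15, 157 and 25.3 CPM in 3D-3D and at 2 to 8.81 CPM in all other libraries. All 4 libraries of 3D-3D were above the rest, and the interaction was 3.50 ± 0.90 (adjusted p = 0.00856), a call that DESeq2 kept and limma-voom and the linear scale did not. Among antigen presentation genes 3 of 16 were called higher and 7 lower, beside 10.3% and 9.1% of all genes, with a median of -0.29 beside 0.03. The 3 were H2-Ab1, H2-Eb1 and Cd74, all of the MHC class II pathway, while H2-DMa and H2-DMb1, which help load peptides in that pathway, were among the 7 lower at -0.81 ± 0.16 and -0.75 ± 0.13. In 3D-3D Cd74 stood at 167 CPM in replicate 3 and at 86.9 to 121 CPM in the others. The call for H2-Eb1 was lost without replicate 4 of 2D-2D. That for Cd74 was lost with limma-voom and without replicate 1, 2 or 3 of 2D-2D, replicate 3 or 4 of 2D-3D or replicate 1 of 3D-2D. H2-Ab1 averaged 16, 18.3, 9.82 and 61.5 CPM, and in 3D-3D it stood at 37.3, 28.2, 138 and 42.8 CPM, again with replicate 3 highest. What set this library apart was not tested.

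Immediate early genes, which respond within minutes to growth factors and stress, were called higher for 15 of 26 and lower for 2. These counts stand beside 10.3% and 9.1% of all genes, and the median was 0.58 beside 0.03. The higher count was 9 without replicate 2 of 3D-3D and 10 without replicate 1, and the lower count was 1 without any of 12 libraries. Fosb stood at 43.3, 54.1, 2.17 and 4.1 CPM in 3D-3D and at 2.4 to 4.68 CPM in all other libraries, so the group overlapped with the rest and its mean rested on replicates 1 and 2. Its adjusted p of 0.0384 ran from 0.00193 to 0.471 over the alternatives, and the call held only without replicate 1 of 2D-2D or replicate 3 or 4 of 3D-3D when single libraries were left out. The Fosb call was also lost with limma-voom and on linear CPM. Junb was steadier, with means of 620, 649, 548 and 1042 CPM in 2D-2D, in 2D-3D, in 3D-2D and in 3D-3D and an interaction of 0.86 ± 0.11.

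Growth factor and signalling lists held more higher than lower calls, where 10.3% of all genes were higher and 9.1% lower. Called higher and lower were 16 and 3 of 40 growth factor genes, 13 and 2 of 26 TGF-beta genes, 9 and 2 of 24 BMP genes and 9 and 3 of 27 Wnt genes, with medians of 0.39, 0.50, 0.51 and 0.58. The 2 lower calls among BMP genes fell to 0 or 1 when any of 13 libraries was left out. Fst, the activin antagonist follistatin, averaged 73.5, 29.2, 98.1 and 101 CPM in 2D-2D, in 2D-3D, in 3D-2D and in 3D-3D, with an interaction of 1.38 ± 0.14. Smad6, an inhibitor of BMP signalling, fell in gel by 0.41 after 2D and rose by 1.02 after 3D. Tgfbi, a protein induced by TGF-beta, was called lower at -1.37 ± 0.12. Mmp15, a membrane-bound matrix metalloproteinase, averaged 0.971, 1.28, 3.01 and 20.8 CPM, with an interaction of 2.39 ± 0.51.

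Further fibroblast, growth and cytokine genes picked by name gave smaller values. Thbs1, the matricellular protein thrombospondin 1, had an interaction of 0.74 ± 0.13, Timp1, an inhibitor of metalloproteinases, one of 0.78 ± 0.13 and Tgfb1, the ligand itself, one of -0.48 ± 0.13, and these 3 were called. Not called were Fn1, which codes for fibronectin, at 0.15 ± 0.23, Pdgfra, the PDGF receptor of fibroblasts, at 0.24 ± 0.15, Mmp3, the protease stromelysin 1, at -0.10 ± 0.14 and Mki67, the proliferation antigen Ki-67, at 0.61 ± 0.26. Il1b, the inflammatory cytokine interleukin 1 beta, rose in gel by 4.76 after 2D and by 4.07 after 3D, and its interaction of -0.69 ± 0.26 was not called (adjusted p = 0.0725), nor was that of the neutrophil chemokine Cxcl1 at 0.32 ± 0.26. Pdpn, the mucin-like podoplanin of alveolar type 1 cells and some fibroblasts, had -0.30 ± 0.11 (adjusted p = 0.0523). These values are from edgeR. Pdpn was called by DESeq2, by limma-voom, with library size alone, with all 20 libraries and without any of 5 single libraries, Il1b by DESeq2, with library size alone and without replicate 4 of 2D-3D or of 3D-3D, and Mki67 without replicate 1 of 2D-2D or replicate 3 of 3D-3D, and on linear CPM the direction of Il1b turned.

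The p53 and senescence list leaned to the lower side, with 2 of 20 called higher and 9 lower, beside 10.3% and 9.1% of all genes. The higher count was thus near the share over all genes, and it was 1 without any of 8 libraries. The median was -0.37 beside 0.03. Sesn1, a stress-induced inhibitor of growth signalling, averaged 9.97, 38.7, 13.8 and 21.5 CPM in 2D-2D, in 2D-3D, in 3D-2D and in 3D-3D, with an interaction of -1.32 ± 0.16. Eda2r, a receptor induced by p53, averaged 12.6, 11.7, 12.3 and 4.45 CPM, so that 3D-3D alone was low, with -1.37 ± 0.28. Of 19 tested endothelial markers 9 were called higher and 1 lower, beside 10.3% and 9.1% of all genes, with a median of 1.11. Pecam1, which codes for the CD31 antigen, averaged 1, 4.29, 1.6 and 18.7 CPM. Ace, the angiotensin-converting enzyme and the most abundant marker of that list, averaged 2.66, 158, 6.35 and 120 CPM and was the 1 called lower, at -1.65 ± 0.23. The 20 endothelial markers took 0.0243% of counts in 2D-3D and 0.0318% in 3D-3D, and 0.00568% and 0.00616% in 2D-2D and 3D-2D.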

How the data were processed

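RNA-seq libraries of 16 cultures, 4 in each of 4 groups taken from the labels, were analysed, and the 4 libraries of sorted cells entered only 1 alternative fit. The submitters' processing notes name HISAT, Bowtie2 and the build GRCm38.p6, with no versions, and the program that counted the reads is not given in the sources used here. Values per gene are expected counts as the authors deposited them. Of these 5.98% are not whole (tolerance 1e-06), and all were rounded before testing. Of 67228 genes listed, 18012 carry values. The 5 deposited columns of averages were not used. Without a stated strand setting, overlapping genes and close families (the Sprr2 genes, Scd1 and Scd2) share some uncertainty.

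Tests used R 4.3.3 with edgeR 4.0.16 (filterByExpr, TMM, glmQLFit and glmQLFTest), 1 fit of the 16 libraries and Benjamini-Hochberg adjustment over 13704 genes, with calls below 0.05. The common biological coefficient of variation was 0.122. The interaction is a difference of log2 fold changes, and its SE comes from the F statistic. Sums of squares used log2 CPM with a prior count of 2. The 47 gene lists (32 by function and 15 by cell type, 988 genes, 43 of them in more than 1) were described by counts and medians. The members, lists and tests were chosen with earlier results of these data known. Genes were named by rule: the largest called interactions overall and with opposite arms, the largest of each functional list, the most abundant of each cell type list, those with under 1 CPM in a group, and 26 fibroblast and cytokine genes picked by name. The rule gave 174 genes. The text names 127, of which 93 come from the rule, taken in rank order within parts but not to their end and passing over genes not reported here, and 34 were chosen after their values were seen. The code was tested on simulated data. Alternatives were RLE size factors, library size alone, DESeq2 1.42.0, limma-voom (limma 3.58.1), other filters, a replicate block, all 20 libraries, a 2-fold minimum, linear CPM divided by the gene's mean, and each library left out in turn.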

Additional observations from a re-analysis of the deposited data

Results flagged for a closer look

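The second culture acted differently after the first substrates in 2654 genes by the test of the difference itself, and in 256 of them both effects were called with opposite signs. In the 96 groups of 4 libraries shown for 24 genes, 8 held a library far from the others by Dixon's ratio at the 95% level, where chance flags about 1 group in 20. Replicate 3 of 3D-3D lay far above its group for Egln3 at 496 CPM (others 141 to 172), for Nos2 at 157 CPM (others 15 to 25.3) and for H2-Ab1 at 138 CPM (others 28.2 to 42.8). Replicate 1 of 2D-3D lay far above its group for Nos2 at 8.81 CPM. In 2D-2D, replicate 1 was high for Ms4a7 at 14.6 CPM and for Fcrls at 53.3 CPM, and replicate 2 was low for Idi1 at 11.6 CPM. In 3D-2D, replicate 2 was high for Lcn2 at 233 CPM. The interaction of each of these 7 genes was still called when each of the 16 libraries, those named here included, was left out in turn. On linear CPM the calls for Egln3, Nos2 and H2-Ab1 were lost, and with limma-voom that for Nos2.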

How the results depend on the processing

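The number of called interactions stayed within 1.5 times of 2654 under RLE size factors (2639), library size alone (2562, of which 1146 were higher and 1416 lower), DESeq2 (2961), limma-voom (2565), no filter (2551), at least 1 CPM in 4 libraries (2635), all 20 libraries in the fit (2993) and the linear scale (3157). Leaving out each library in turn gave 2264 to 2913 calls (1155 to 1517 higher, 1063 to 1396 lower), 9297 to 10013 and 9184 to 9807 for the second culture after 2D and after 3D, 3438 to 4048 and 2234 to 3182 for the first culture in gel and on plastic, and 217 to 279 interactions with opposite arms. With a minimum change of 2-fold the interaction was called for 118 genes (66 higher, 52 lower), the second culture for 2259 after 2D and 1984 after 3D, and the first culture for 602 in gel and 137 on plastic. That test asks for more than 2-fold beyond error, so fewer calls follow from its construction.

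With the replicate number as a block, 2563 interactions were called, 243 of them with opposite arms, and no count of calls over all genes moved by over 1.5 times, though 4 list counts did and the calls for Ctgf, Fosb and Cldn2 were lost. The numbers are not taken as pairs, since same-numbered libraries of different groups deviated together with a correlation over 0.1 in 1 of 24 pairs, and 9 of 16 libraries correlated better on average with their own number than with others. With a prior count of 0.5 the shares of the sum of squares were 20.49% for the first culture, 54.13% for the second and 18.55% for the residual. With at least 1 CPM in 4 libraries the second culture took 61.7% and the residual 13.42%. Leaving out each library gave 17.9% to 19.28% for the first culture, 57.25% to 59.37% for the second, 6.93% to 7.53% for the interaction and 15.08% to 16.8% for the residual.

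Of the 108 genes named in the text whose interaction was called, 77 kept the call in every alternative other than the 2-fold minimum, under which 34 did. On linear CPM 10 of the named genes changed direction, with values in units of the gene's mean of -0.18 (Ankrd1), -0.05 (Ctgf), -0.10 (Il11), 0.45 (Nid2), 1.45 (Wisp2), 0.02 (Cldn2), 2.24 (Hsd3b1), 0.45 (Col1a1), 1.05 (Cnn1) and 1.89 (Il1b), of which the last 3 were not called on ratios. There 2233 of the 2654 calls were made again with the same sign and 17 with the opposite sign. Over all alternatives, 292 of 2350 counts of called list members moved by over 1.5 times, many of them small counts. Genes with few counts in a group, such as the airway markers, were called differently by the tools, and what depth contributed was not tested.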
